A study of Mus musculus with 3 samples.

Results

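The miRNAs described are 7 of the 1915 mature miRNAs counted in each library. They are the guide strands of the miR-200 family (miR-200b-3p, miR-200c-3p, miR-429-3p, miR-200a-3p and miR-141-3p) and the keratinocyte miRNAs miR-203-3p and miR-205-5p, chosen by name. Small RNA was sequenced from B16, a melanoma line labelled strain C57BL/6J, both as cells and as the exosomes they shed, and from the exosomes of JB6, a skin line labelled normal and strain BALB/c. Exosomes are small vesicles that cells release into the medium. They were collected by ultracentrifugation, and RNA was extracted with Trizol. Each group was 1 library of 1 cell line, with no treatment or age in the labels, and no library of JB6 cells was analysed here. Cell line, strain and disease state therefore cannot be told apart in any comparison with JB6, and no difference has a replicate check. The comparison of JB6 exosomes with B16 cells also sets vesicles against cells, so the material cannot be told apart from the line there.

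A miRNA is a short RNA that guides Argonaute proteins to messenger RNAs matching its seed, the stretch of bases near its 5′ end. The miR-200 family is known for keeping cells epithelial: it represses the transcription factors Zeb1 and Zeb2, which in turn silence E-cadherin and the miR-200 genes themselves. In skin, miR-203 is known for promoting keratinocyte differentiation, in part by repressing p63, and miR-205 is abundant in basal keratinocytes. Melanocytes and melanomas are not epithelial and derive from the neural crest, whereas JB6 is known as a mouse epidermal line.

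The 7 mature sequences are shown because the family is defined by its seeds and because near-identical members may share reads. They come from RefSeq (GRCm38.p6), where all 7 were found, and capitals mark the seed, bases 2 to 8.
miR-200b-3p: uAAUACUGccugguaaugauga
miR-200c-3p: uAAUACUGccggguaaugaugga
miR-429-3p: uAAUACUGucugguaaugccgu
miR-200a-3p: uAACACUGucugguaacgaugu
miR-141-3p: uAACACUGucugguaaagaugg
miR-203-3p: gUGAAAUGuuuaggaccacuag
miR-205-5p: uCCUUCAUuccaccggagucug

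The sequences fall into 4 seeds. miR-200b-3p, miR-200c-3p and miR-429-3p share AAUACUG, and miR-200a-3p and miR-141-3p share AACACUG, which differs from it by U4C (counted from 1 at the 5′ end, with the miR-200b-3p base first). No other mature mouse miRNA in the RefSeq table had any of the 4 seeds. miR-200b-3p and miR-200c-3p differ at 2 of 22 compared positions (U11G and A22G), and so do miR-200a-3p and miR-141-3p (C17A and U22G). The sources used here do not say how reads matching several miRNAs were assigned, so the split within each of these pairs is uncertain. miR-203-3p and miR-205-5p match at 3 of 22 positions.

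The 7 hairpins lie at 4 places in the mouse genome (GRCm38). Mir200b (chr4:156055681-156055750), Mir200a (chr4:156054896-156054985) and Mir429 (chr4:156053905-156053987) sit on the minus strand within 1846 bases, in introns of the protein-coding gene Ttll10, and Mir429 also overlaps an exon of the non-coding gene Gm13648. Mir200c (chr6:124718322-124718390) and Mir141 (chr6:124717914-124717985) sit on the minus strand within 477 bases, in an intron of the non-coding gene Gm15884, and Mir141 also overlaps an exon of the gene Gm29008. Mir203 (chr12:112130880-112130955, plus strand) lies between genes, 3321 bases from Aspg. RefSeq also annotates a hairpin for miR-203b on the opposite strand there, and whether strand was used in counting is not given. Mir205 (chr1:193507463-193507530, minus strand) overlaps an exon of a lincRNA gene.

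The B16 cell library held 7925726 miRNA reads, the B16 exosome library 45677 and the JB6 exosome library 4495956. No count between 1 and 9 was listed, so a listed 0 means at most 9 reads. That is at most 1.14 reads per 1000000 miRNA reads (RPM) in B16 cells, 2.002 RPM in JB6 exosomes and 197 RPM in B16 exosomes. Exact (Clopper-Pearson) 95% intervals are given with the values and cover counting error only.

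In B16 cells 4 of the 7 epithelial miRNAs were listed, all at low levels, with 197 reads or 24.9 RPM in all. miR-200b-3p had 71 reads (8.96 RPM, 6.996 to 11.3), miR-200c-3p 64 reads (8.08 RPM, 6.22 to 10.3), miR-203-3p 47 reads (5.93 RPM, 4.36 to 7.89) and miR-200a-3p 15 reads (1.89 RPM, 1.06 to 3.12). miR-429-3p, miR-141-3p and miR-205-5p were listed at 0. By rank, miR-200b-3p stood at place 331 of the 559 listed miRNAs and miR-200a-3p at place 494, and the median listed miRNA had 150 reads.

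The members of each genomic cluster were unequal in the melanoma cells. Within the chromosome 4 cluster, miR-200b-3p had 4.73 times the reads of miR-200a-3p (2.69 to 8.90) and at least 7.89 times those of miR-429-3p, for which the counting limit nearest to 1 was 3.93. In the chromosome 6 cluster, miR-200c-3p had at least 7.11 times the reads of miR-141-3p (limit 3.52). The members with the AAUACUG seed held 135 reads and those with the AACACUG seed 15. Counts of different miRNAs can also differ through how well each sequence enters a library, which was not tested. The counts of miR-200b-3p and miR-200c-3p, which head the separate clusters, did not differ beyond counting error (ratio 1.11, 0.780 to 1.58), nor did those of miR-200c-3p and miR-203-3p (1.36, 0.920 to 2.03). miR-200b-3p had 1.51 times the reads of miR-203-3p (1.03 to 2.23), and miR-203-3p 3.13 times those of miR-200a-3p (1.72 to 6.03).

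In JB6 exosomes 2 of the 7 were listed, with 35 reads or 7.78 RPM in all. miR-200b-3p had 22 reads (4.89 RPM, 3.07 to 7.41) and miR-203-3p had 13 reads (2.89 RPM, 1.54 to 4.94), only a little above the 10 reads at which an entry is listed. miR-200c-3p, miR-429-3p, miR-200a-3p, miR-141-3p and miR-205-5p were listed at 0. The ratio of miR-200b-3p to miR-203-3p was 1.69 (0.816 to 3.66), so their order is within counting error. miR-205-5p, the miRNA of basal keratinocytes, was thus at or below 9 reads in the vesicles of the skin line and in both melanoma libraries.

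**Figure D1:**
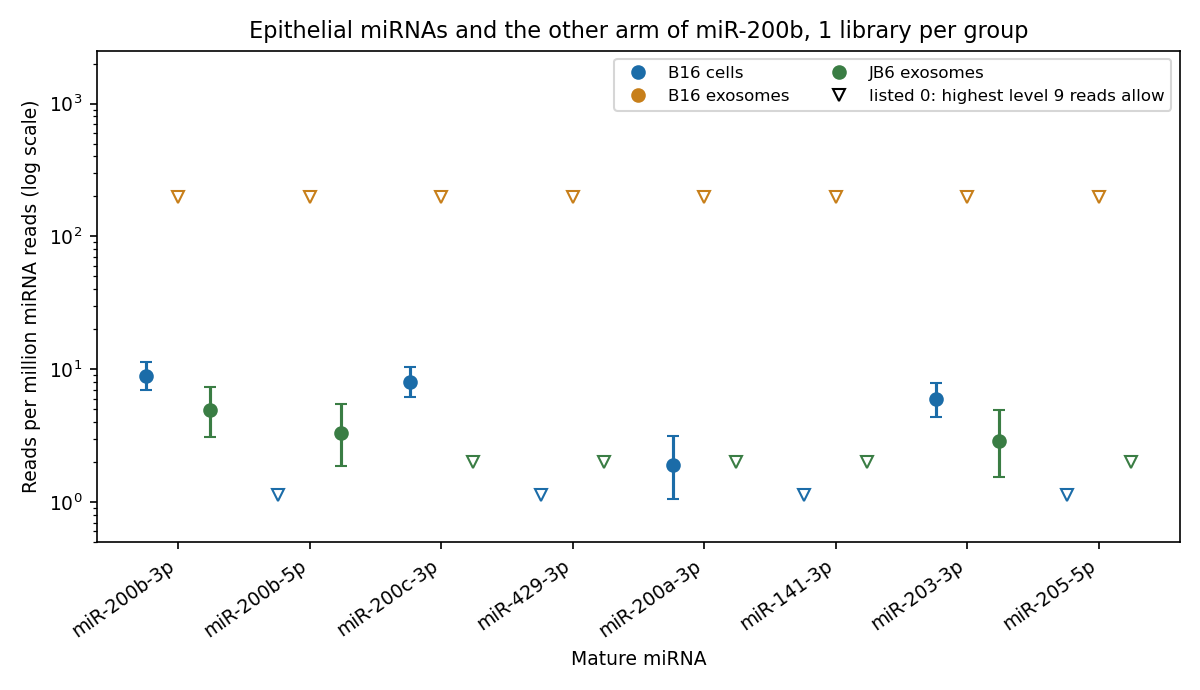
Level of each epithelial miRNA and of miR-200b-5p (horizontal axis) in RPM of miRNA reads (vertical axis, log scale) in the 3 libraries, with exact 95% counting intervals. Filled points are listed values, and open triangles mark the highest level that 9 reads allow where 0 is listed: in B16 exosomes that limit of 197 RPM lies above every listed value of these miRNAs in the other libraries.

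None of the 7 was listed in B16 exosomes, and at this depth none would have been listed at its level in the cells. At the share seen in B16 cells, 0.409 reads of miR-200b-3p, 0.369 of miR-200c-3p, 0.271 of miR-203-3p and 0.0864 of miR-200a-3p would be expected there, against the 10 reads needed for an entry to be listed. The ratio of B16 exosomes to B16 cells was therefore bounded only from above, at 22.0 for miR-200b-3p, 24.4 for miR-200c-3p and 33.2 for miR-203-3p. These bounds fell to 10.9, 12.0 and 16.4 with TMM factors and to 1.30, 1.45 and 1.97 with the authors' totals, and no member was resolved under either scaling. The rule for a higher or lower call asked for at least 30 reads over both libraries, a ratio of shares of at least 2-fold and an interval that excluded 1. Of all 422 miRNAs tested in this comparison 16.4% were called and 63.3% were not resolved, and the 3 epithelial members with enough reads were all not resolved. With the authors' totals 60.9% of the 422 were called lower. miR-200a-3p had too few reads, and the other 3 were listed at 0 in both. Against JB6 exosomes, where 43.0% of 300 tested miRNAs were called, miR-200b-3p and miR-203-3p had too few reads and the other 5 were listed at 0 in both.

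The deep libraries, JB6 exosomes and B16 cells, were then set side by side, which asks whether the vesicles of the skin line hold more or less of the epithelial miRNAs than the melanoma cells. Any difference between them may lie with the cell line or with vesicles against cells, which this pair cannot separate. As shares of miRNA reads, every member listed in either library had a listed count in the melanoma cells, and none was called higher in JB6 exosomes. miR-203-3p was 2.05-fold lower in JB6 exosomes (1.09 to 4.13). miR-200c-3p, with 64 reads against a listed 0 where 36.3 would be expected at the share of the cells, was at least 4.03-fold lower, or 1.997-fold by the counting limit nearest to 1. miR-200b-3p, at 1.83-fold lower (1.12 to 3.10), was not called because it lay within 2-fold. For miR-200a-3p, 8.51 reads would be expected, below the listing threshold, so a difference was not detectable. Of 3 members tested 2 were thus called lower, against 60.7% of all 501 miRNAs tested, and 26.1% of the 501 were called higher. The median log2 ratio of the 305 miRNAs listed in both libraries was -1.47, beside -0.87 for miR-200b-3p and -1.04 for miR-203-3p.

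These directions depended on how the libraries were scaled. In JB6 exosomes miR-122-5p, the main miRNA of liver, alone held 25.1% of miRNA reads, against 0.00531% in B16 cells. Relative to the main scaling, every log2 ratio moved by 1.35 with TMM factors, by 2.58 with DESeq2 size factors, by 0.67 when the 10 most abundant miRNAs of each library were left out of the totals, and by -0.19 with the authors' totals. The ratio of miR-200b-3p, 0.546 by total reads, was 1.39 with TMM (0.821 to 2.27) and 3.26 with DESeq2 factors (1.93 to 5.33). The ratio of miR-203-3p, 0.488 by total reads, was 1.24 with TMM (0.616 to 2.33) and 2.91 with DESeq2 factors (1.45 to 5.47). Both were thus called higher in JB6 exosomes with DESeq2 factors, where 40.7% of all tested miRNAs were called higher and 26.7% lower. These factors rest only on the 132 miRNAs listed in all 3 libraries, the shallow B16 exosome library included, and not on the 305 listed in both deep libraries. miR-200c-3p was not resolved with TMM or DESeq2 factors, with upper bounds of 0.631 and 1.48, and stayed lower without the 10 most abundant miRNAs (upper bound 0.393) and with the authors' totals (0.218), where 51.3% and 64.9% of all tested miRNAs were called lower. Summed over the AAUACUG seed, 22 reads were listed in JB6 exosomes against 135 in B16 cells. If each listed 0 in JB6 exosomes stood for 9 reads, the summed ratio would be 0.522 by total reads (0.357 to 0.748), 1.33 with TMM (0.911 to 1.91) and 3.12 with DESeq2 factors (2.14 to 4.47).

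**Figure D2:**
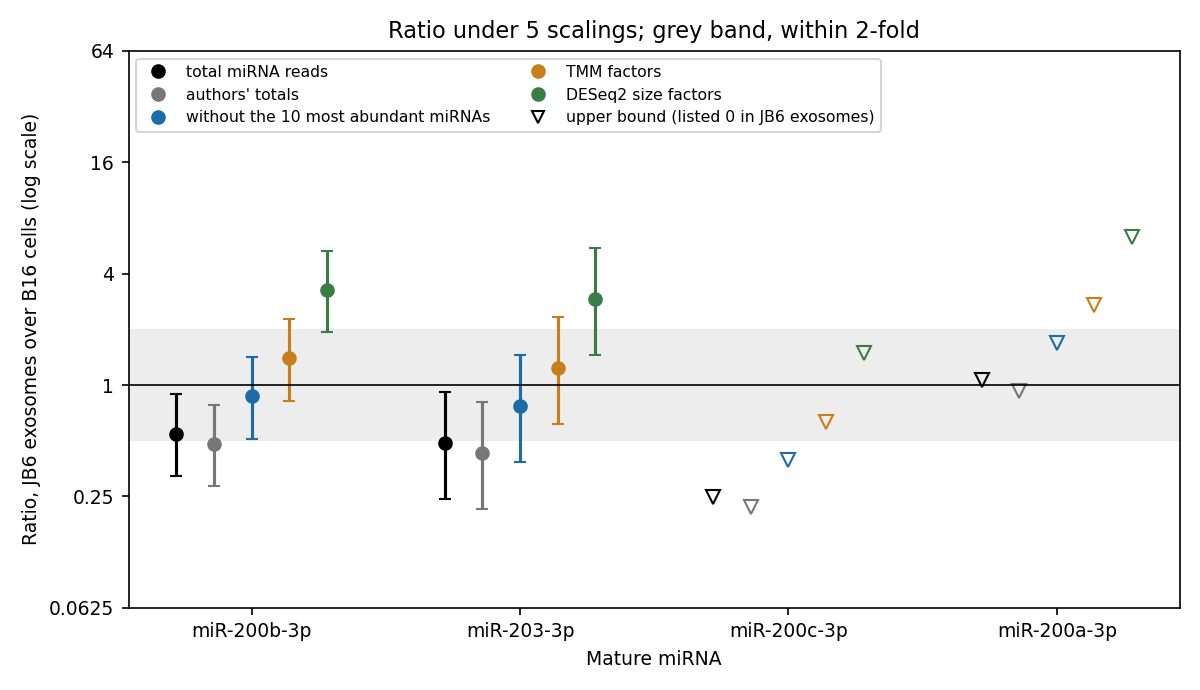
Ratio of JB6 exosomes to B16 cells (vertical axis, log scale) for the 4 epithelial miRNAs listed in either library (horizontal axis) under 5 scalings, with exact 95% counting intervals. Open triangles are upper bounds for a listed 0 in JB6 exosomes, the grey band is the range within 2-fold, and the points of miR-200b-3p and miR-203-3p cross 1 from 0.546 and 0.488 by total reads to 3.26 and 2.91 with DESeq2 factors.

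Ratios between miRNAs of the same library do not depend on scaling. miR-203-3p had 0.591 reads for each read of miR-200b-3p in JB6 exosomes and 0.662 in B16 cells, a ratio of 0.893 (exact conditional interval 0.374 to 2.07), so a difference in their proportion was not resolved. miR-200c-3p had at most 0.409 reads for each read of miR-200b-3p in JB6 exosomes and 0.901 in B16 cells. That is at least 2.20-fold less in JB6 exosomes, but with counting error the interval reached past 1 (0.891 to 5.83), so the difference was not resolved.

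The arms of the miR-200b hairpin gave the only listing of a partner strand. The hairpin is printed from RefSeq with both mature arms in capitals, the 5p arm first, since both were read in JB6 exosomes.
Mir200b: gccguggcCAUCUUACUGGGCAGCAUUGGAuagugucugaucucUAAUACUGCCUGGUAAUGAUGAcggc
Usually 1 arm of a hairpin is loaded into Argonaute and the other is degraded, and for miR-200b the 3p arm is the known guide. In JB6 exosomes miR-200b-5p had 15 reads (3.34 RPM, 1.87 to 5.50) and miR-200b-3p 22, so the 5p arm made up 40.5% of the hairpin's reads (24.8 to 57.9). At so few reads an arm with a small share would not be listed. Of all 178 hairpins with 30 or more reads in JB6 exosomes, 45.5% had both arms listed. The arm with fewer reads then had a median share of 7.77%, and in 5 hairpins, miR-200b among them, its share was over 40%. This share takes whichever arm had fewer reads, so it does not show hairpins where the usual guide was the scarcer arm. In B16 cells 63.1% of 222 such hairpins had both arms listed. In B16 cells, with 71 reads of the 3p arm, the 5p arm was listed at 0 and made up at most 11.25%. At its share in JB6 exosomes, 26.4 reads of miR-200b-5p would be expected in B16 cells. The 5p arm relative to the 3p arm was at least 5.38 times higher in JB6 exosomes than in B16 cells. The counting limit nearest to 1 was 1.87, and this ratio does not depend on scaling. The hairpin was picked because its partner strand was listed, which that limit does not allow for. Alone, miR-200b-5p had 15 reads over this pair, under the 30-read minimum for a call. How often other hairpins differed in this way was not computed. The other 6 partner strands (miR-200c-5p, miR-429-5p, miR-200a-5p, miR-141-5p, miR-203-5p and miR-205-3p) were listed at 0 in all 3 libraries.

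Other miRNAs known from epithelia held more reads in all than the 7, mostly through miR-31-5p, miR-184-3p and miR-192-5p, and they did not follow one direction. All 9 of them were listed in at least 1 of the deep libraries. Their summed share of miRNA reads was 0.640% in B16 cells, 0.803% in their exosomes and 0.144% in JB6 exosomes. miR-31-5p, which is raised in proliferating keratinocytes, had 32353 reads in B16 cells, 84 in their exosomes and 45 in JB6 exosomes. Its share was 408-fold lower in JB6 exosomes than in B16 cells (305 to 559). miR-184-3p, a miRNA of corneal and lens epithelium, had 12170, 252 and 406 reads (1535.5, 5517 and 90.3 RPM), so its share was highest in B16 exosomes. It was 17.0-fold lower in JB6 exosomes than in the cells (15.4 to 18.8). miR-192-5p, of gut, kidney and liver, had 4145, 20 and 5492 reads (523, 438 and 1221.5 RPM). It was 2.34-fold higher in JB6 exosomes than in B16 cells (2.24 to 2.43). miR-194-5p, its cluster partner, had 870 reads in B16 cells, a listed 0 in their exosomes and 127 in JB6 exosomes.

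By total reads 2 of the 9 were called higher and 6 lower in JB6 exosomes than in B16 cells, and with TMM or DESeq2 factors 3 were higher and 3 lower. The shares of all tested miRNAs were 26.1% higher and 60.7% lower by total reads, 32.9% and 40.3% with TMM, and 40.7% and 26.7% with DESeq2 factors, so the 6 of 9 lower by total reads lay near the background. miR-375-3p, known from pancreatic islets and several epithelia, had 238 reads in JB6 exosomes (52.9 RPM) and was listed at 0 in both B16 libraries. In B16 exosomes such a 0 allows up to 197 RPM, so the 2 exosome libraries were not resolved for this miRNA. miR-375-3p was at least 46.6-fold higher in JB6 exosomes than in B16 cells, or 24.1-fold by the counting limit. miR-375-3p and miR-192-5p were higher, and miR-31-5p, miR-184-3p and miR-182-5p lower, under each of the 5 scalings. miR-96-5p, of the cluster with miR-182 and miR-183, had 65 reads in B16 cells and a listed 0 in both exosome libraries, much like miR-200c-3p.

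Markers of other cell types put these low levels in context. The melanocyte miRNA miR-211-5p had 21080 reads in B16 cells and 83 in their exosomes, both labelled melanoma, and was listed at 0 in JB6 exosomes, labelled normal. The 3 melanocyte miRNAs together had 107 times the reads of the 7 epithelial miRNAs in B16 cells, and miR-137-3p among them was listed at 0 in all 3 libraries. In JB6 exosomes 14 reads of melanocyte miRNAs, all miR-204-5p, stood beside the 35 of the epithelial miRNAs. The list left out miR-204-3p, the other arm of that hairpin, which had 1242 reads there. Of the defining markers of a keratinocyte source, miR-203-3p was present at 13 reads and miR-205-5p was at 0 there.

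Markers of several other tissues, in lists chosen with earlier results of these data known, were far more abundant in the JB6 exosomes than the 7. The liver miRNA miR-122-5p had 1129522 reads, the 3 red-cell miRNAs had 33620 (all 3 listed, led by miR-486a-5p) and the 3 muscle miRNAs had 16665 (all 3 listed, led by miR-206-3p). The 6 mesenchymal miRNAs had 155534 (all 6 listed), of which miR-143-3p alone had 144649. Of 3 leukocyte miRNAs 2 were listed, with 57 reads, and miR-223-3p was at 0. In B16 cells the same lists had 421 reads for liver, 166 for red cells, 11 for muscle, 305475 for mesenchyme (285130 of them miR-143-3p) and 10 for leukocytes. By total reads 2 of the 6 mesenchymal miRNAs were called higher and 2 lower in JB6 exosomes than in B16 cells, beside 26.1% and 60.7% of all tested. With TMM or DESeq2 factors 4 were higher and 2 lower, beside the shares of all tested miRNAs given above. In the far shallower B16 exosome library miR-122-5p had 24 reads, or 525 RPM against 53.1 RPM in B16 cells (ratio 9.89, 6.27 to 14.9). The mesenchymal list had 3680 reads there (3478 of them miR-143-3p), 8.06% of miRNA reads against 3.85% in B16 cells. The red-cell, muscle and leukocyte lists were at 0 in B16 exosomes. Such a 0 allows up to 197 RPM for each miRNA, above the level of each of them in B16 cells. Whether RNA of any other source had a part in the levels of miR-200b-3p, miR-200b-5p and miR-203-3p in JB6 exosomes was not tested.

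**Figure D3:**
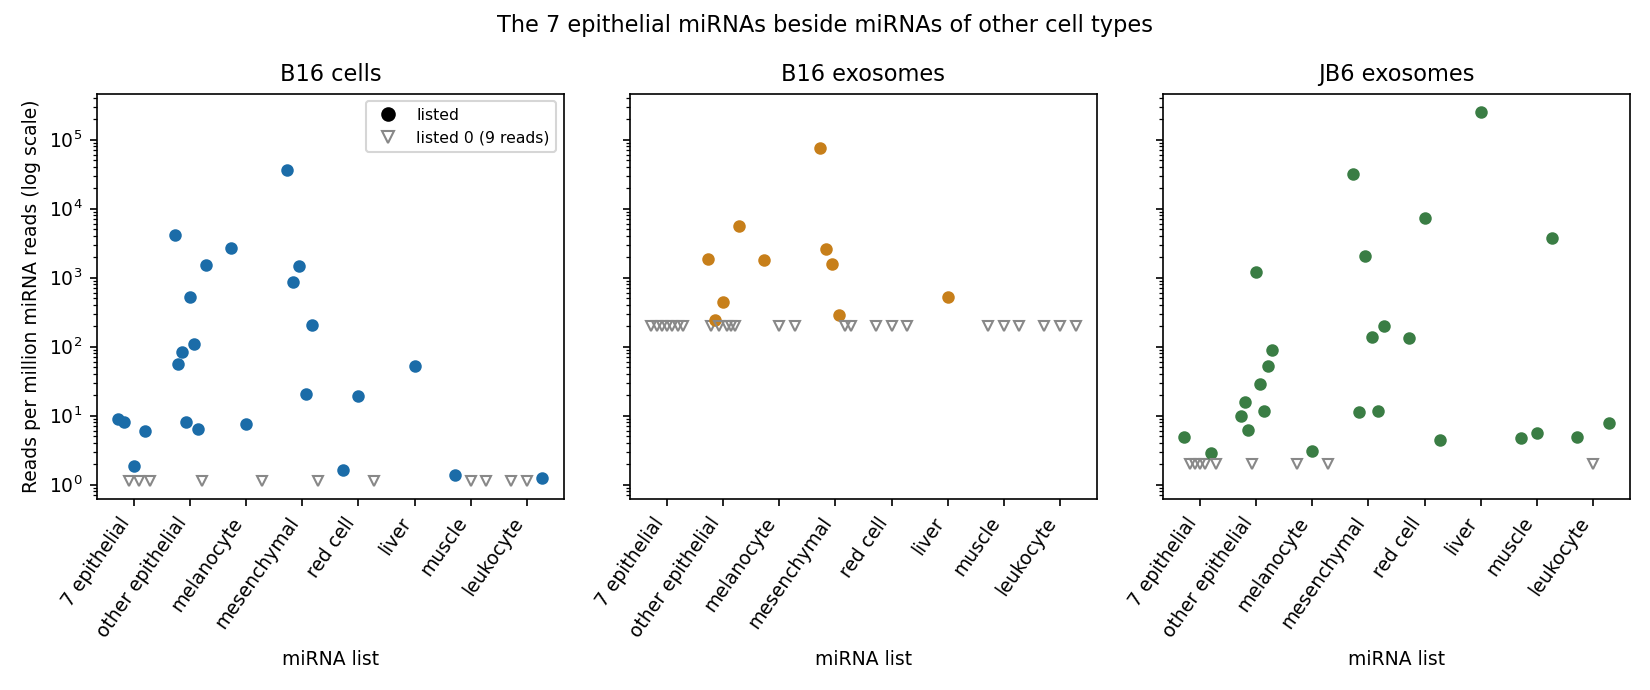
Level of each miRNA of 8 lists (horizontal axis) in RPM of miRNA reads (vertical axis, log scale), 1 panel per library. Filled points are listed values and grey open triangles the level of 9 reads for a listed 0; the 7 epithelial miRNAs lie at or below 8.96 RPM in B16 cells and 4.89 RPM in JB6 exosomes, where liver miR-122-5p has 25.1% of reads.

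Likeness of pattern was measured as the Euclidean distance of log2 shares over the 3 libraries, among miRNAs listed in the same libraries. miR-200b-3p and miR-203-3p were listed in B16 cells and JB6 exosomes only, as were 176 miRNAs in all, and miR-200c-3p and miR-200a-3p in B16 cells only, as were 239. Nearest to miR-200b-3p were miR-1843a-3p (70, 0 and 26 reads in B16 cells, B16 exosomes and JB6 exosomes), miR-6944-3p (88, 0 and 22) and miR-505-5p (58, 0 and 25), at distances of 0.24 to 0.35. Nearest to miR-203-3p were miR-6914-3p (47, 0 and 15 reads), the melanocyte miRNA miR-204-5p (60, 0 and 14) and miR-1960 (45, 0 and 17). Nearest to miR-200c-3p were miR-3962 with 64 reads in B16 cells and miR-96-5p and miR-3069-3p with 65 each. miR-200a-3p shared its 15 reads in B16 cells with 6 other miRNAs listed there only, including miR-6958-3p, miR-7021-5p and miR-7030-3p. With 3 libraries and counts this low, likeness describes these values and no more.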

How the data were processed

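Mature miRNA counts from 3 small-RNA libraries were used, 1 per group, with groups taken from the labels. The authors' deposited counts are reads per mature miRNA, not normalized, per the file headers. They also deposited a normalized value in RPM, which in each file equals the count times a constant, with totals of 8721363 (B16 cells), 847694 (B16 exosomes) and 5626936 (JB6 exosomes). Bcl2fastq, BWA and the mm10 build appear in the submitters' processing notes. The meaning of the totals, tool versions, length settings, miRNA annotation, strand use and the treatment of multiple matches were not given in the sources used here.

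From the counts, shares of total miRNA reads and their ratios were computed with exact 95% intervals (Python 3.11.15, scipy 1.17.1) for all miRNAs with 30 or more reads over a pair of libraries. A call needed a 2-fold ratio and an interval excluding 1, and a listed 0 was set to 9 reads as a bound. With 1 library per group no test across samples was possible. The alternatives were TMM factors (edgeR 4.0.16), DESeq2 1.42.0 size factors, the authors' totals, totals that leave out the 10 most abundant miRNAs, a minimum of 0 or 100 reads, and members summed by seed. Loci are from GENCODE M21 and sequences from RefSeq GRCm38.p6, the build of mm10. All 7 members were named, with the partner strands, the 4 or fewer most abundant miRNAs of each marker list, and the 3 miRNAs nearest in pattern to each listed member. miR-375-3p, miR-182-5p, miR-96-5p, miR-137-3p, miR-223-3p and miR-204-3p were named after their values were seen. The miR-203b entries had no count in the files. The members and lists were chosen with earlier results of these data known.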

Additional observations from a re-analysis of the deposited data

How the results depend on the processing

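Summed by seed, 3 of 4 seeds were listed in B16 cells, none in B16 exosomes and 2 in JB6 exosomes. A seed counted as listed when any of its members was, so this sum could not change presence and is no check of it. No member was called in either comparison with B16 exosomes under any scaling or minimum tried. In JB6 exosomes against B16 cells, the 2 members called lower became 0 with TMM factors, 0 with DESeq2 factors, 1 without the 10 most abundant miRNAs, and 0 with a minimum of 100 reads, which no member reached. The shares of all tested miRNAs called lower were 60.7% by total reads and, in the same order, 40.3%, 26.7%, 51.3% and 63.9%. With DESeq2 factors, which rest on the 132 miRNAs listed in all 3 libraries, 2 members were called higher, beside 40.7% of all tested. The ratios of miR-200b-3p and miR-203-3p turned above 1 with TMM (1.39 and 1.24) and DESeq2 (3.26 and 2.91). With the authors' totals 3 members were lower, since miR-200b-3p (0.480) then passed the 2-fold rule, beside 64.9% of all tested miRNAs. No paired analysis was possible because each group has 1 library. Depth limits the B16 exosome library to miRNAs above 219 RPM.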
